A study of Homo sapiens with 6 samples.

Results

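The expression of 43 genes of the lysosome and of autophagy was compared between control myeloma cells and cells depleted of PRKCN. The genes were taken from a list of symbols that covers lysosomal membrane proteins (5 genes), lysosomal proteases (8), glycan and lipid hydrolases with their cofactors (11), the transcription factors TFEB and TFE3, subunits of the proton pump called V-ATPase (8) and autophagy proteins (9). All 43 were present among the 21850 genes of the count table, so no symbol of the list was absent, and all 43 had enough counts to be tested. RNA was sequenced from MM.1S, an established human multiple myeloma cell line, 72 h (day 3) after lentiviral transduction with a short hairpin RNA. The control group, shNT, received a scramble hairpin and its genotype is labelled WT. The other group, shPRKCN, received a hairpin against PRKCN, the protein kinase listed under its current symbol PRKD3, and its genotype is labelled PRKCN knockdown. Each group had 3 libraries. Both groups were transduced, both came from a single cell line, and which of the study's PRKCN hairpins was used is not given in the sources used here.

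Lysosomes are acidic organelles in which proteins, glycans, lipids and whole organelles are broken down. The V-ATPase pumps protons into them, most of their enzymes work at that low pH, and autophagy delivers cytoplasmic material to them in double-membraned vesicles. Many lysosomal and autophagy genes carry a short promoter element, recognized by TFEB and TFE3, whose letters contain CACGTG, and the kinase complex mTORC1 at the lysosomal surface holds both factors in the cytoplasm when nutrients are plentiful. Plasma cells and myeloma cells secrete or degrade large amounts of immunoglobulin and are known to rely on proteasomes and autophagy for protein turnover.

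Library totals ran from 35625564 to 37730003 counts. PRKD3 fell from 1262 ± 41.7 CPM (counts scaled to library size; mean ± SD, n = 3) in shNT to 517 ± 23.4 in shPRKCN, a log2 fold change of −1.29 (SE 0.034, adjusted p = 8.2e-43). Of the markers used to check the labelled cell type, 9 of 9 plasma cell genes had a mean of at least 1 FPKM (a level scaled by gene length and library size), and their summed level was 5800 to 5930 FPKM in shNT and 5342 to 5565 in shPRKCN. JCHAIN (4136 and 4236 FPKM, adjusted p = 0.712) made up most of that sum. At the adjusted p limit 6 of the 9 fell, with XBP1 at 0.411 times, TNFRSF17 at 0.457 times, SLAMF7 at 0.512 times and PRDM1 at 0.687 times the shNT level, SDC1 rose (1.13-fold), and CD38 did not pass. Macrophages are rich in lysosomes, and the 5 of 9 monocyte and macrophage markers listed were at 0.1 FPKM or less, with sums of 0.029 to 0.224 in shNT and 0.084 to 0.146 in shPRKCN. Stromal markers (3 of 5 listed) were likewise at 0.1 FPKM or less. The summed T cell markers were at 7.61 to 8.23 and 20.1 to 22.7 FPKM through CD3E alone, with the other 4 at 0.1 or less, and the summed B cell markers (5 of 6 listed) were at 3.29 to 3.59 and 1.45 to 1.56 through CIITA. The part of these differences in the results below was not tested. In bulk RNA, fewer cells with a transcript and less of it per cell cannot be told apart.

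More members rose than fell after PRKCN knockdown. At a Benjamini-Hochberg adjusted p under 0.05 (edgeR's quasi-likelihood test over 13971 genes), 23 of 43 members were higher in shPRKCN (53.5%) and 6 were lower (14%), whereas 26.5% of all genes tested were higher and 27.8% were lower (54.2% in either direction). Members were deeper than most genes, with a median mean count of 2566.2 against 767.3 for all genes tested. Among the 9966 genes at least as deep as the member with the fewest counts, 31.6% were higher and 31.8% lower. That lowest count is called the depth floor below. The set was not matched to the members in depth, so its shares are not a depth-matched background. The median log2 fold change was 0.19 over the members and 0.0012 over all genes tested. All 3 shPRKCN libraries lay above all 3 shNT libraries for 24 members (29% of all genes tested), and below them for 6 (29.8%, or 58.8% in either direction). Members took 0.472% to 0.486% of all counts in the shNT libraries and 0.585% to 0.601% in the shPRKCN libraries.

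Most of the changes were small. Genes were called when they also passed a log2 fold change of 0.58, about 1.49-fold. Both limits were passed by 6 of 43 members in the higher direction (14%, against 6.15% of all genes tested): the proteases CTSZ and CTSA, the hydrolases SMPD1 and NEU1, the proton pump subunit ATP6V0D1 and the autophagy kinase ULK1. CTSH was the single called lower member (2.33%, against 10.6% of all genes tested). For genes at or above the depth floor the corresponding shares were 4.17% and 8.69%. NEU1 and ULK1 stood near the fold limit, and the other 5 called members passed both limits in every alternative fit and without any 1 library.

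**Figure D1:**
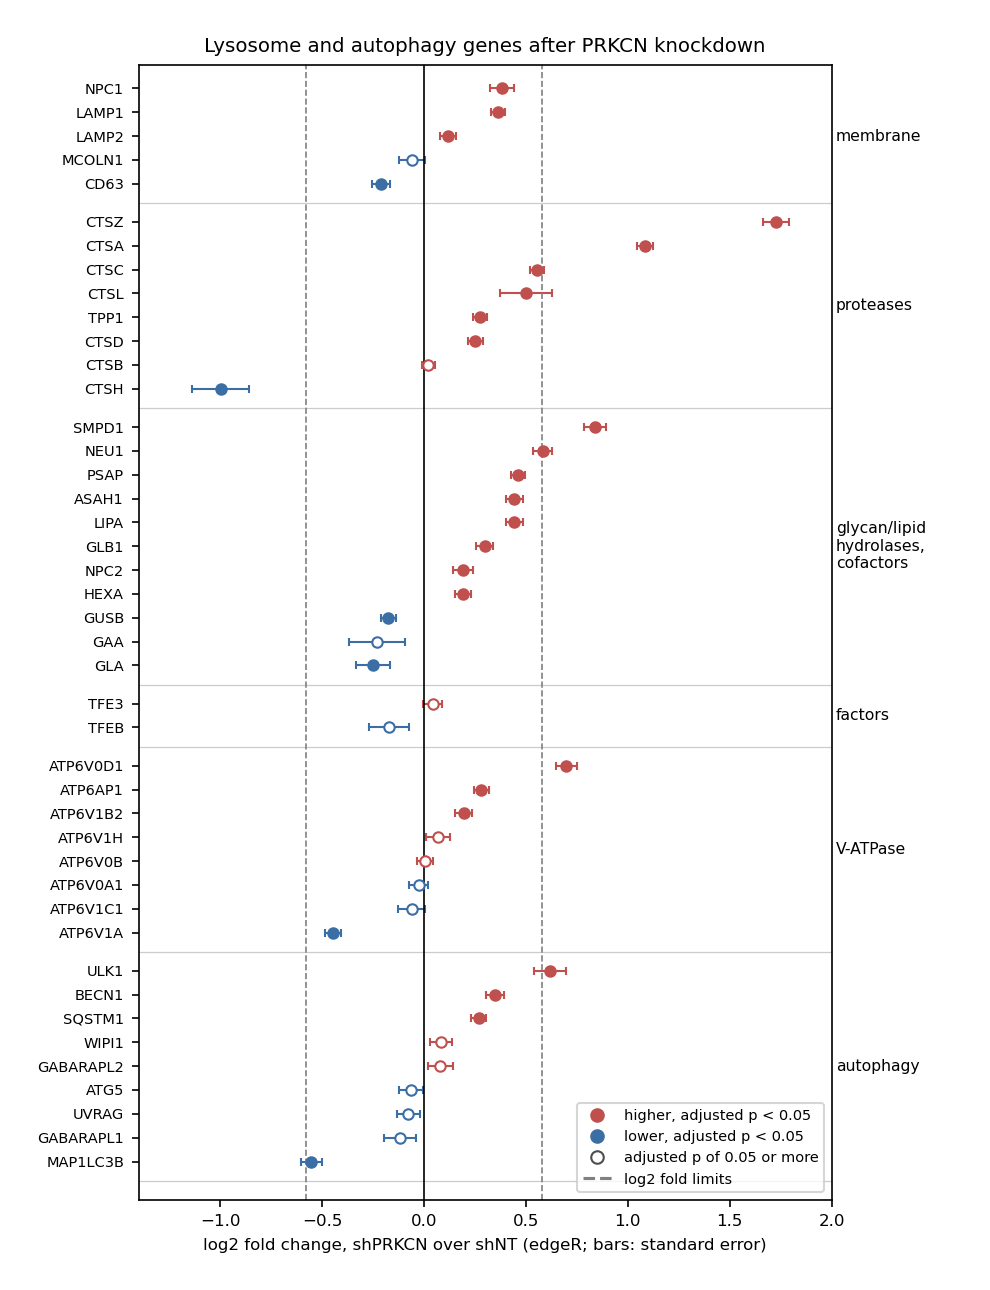
Log2 fold change, shPRKCN over shNT, of the 43 members by role, with bars for the standard error (3 libraries per group), filled symbols for an adjusted p under 0.05 and dashed lines at the fold limits. CTSZ and CTSA lie farthest to the right, CTSH farthest to the left, and the filled red symbols are densest among the proteases and the glycan and lipid hydrolases.

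**Figure D2:**
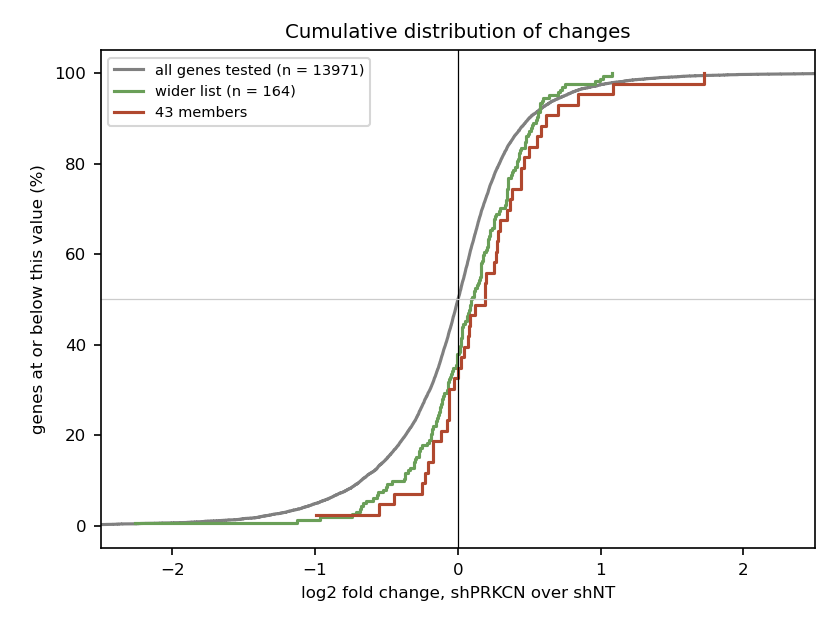
Cumulative share of genes (%, vertical axis) at or below a given log2 fold change (horizontal axis, shPRKCN over shNT) for the 43 members, for 164 tested genes of a wider lysosome and autophagy list and for all 13971 genes tested. The curves cross 50% at 0.19, 0.10 and 0.0012, and the members' curve stays to the right of the curve of all genes over most of its range.

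Levels of the members were compared per gene length, with the deposited FPKM values. In shNT cells the means ran from 1.48 FPKM for GAA to 410 for PSAP, with a median of 25.2. PSAP encodes the precursor of the saposins, small proteins that present lipids to hydrolases, and it took 23.4% to 23.8% of the members' counts in the shNT libraries and 26.3% to 27.1% in the shPRKCN libraries. GUSB (102 FPKM), LAMP1 (92.6), CTSD (83.0) and CTSB (76.9) followed, and CTSH (2.17), ULK1 (2.60), CTSL (3.17) and TFEB (3.46) were at the low end with GAA. CTSD and CTSB are neighbors in this order whose shNT libraries did not overlap, at 81.3 to 84.2 and 74.9 to 78.1 FPKM.

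**Figure D3:**
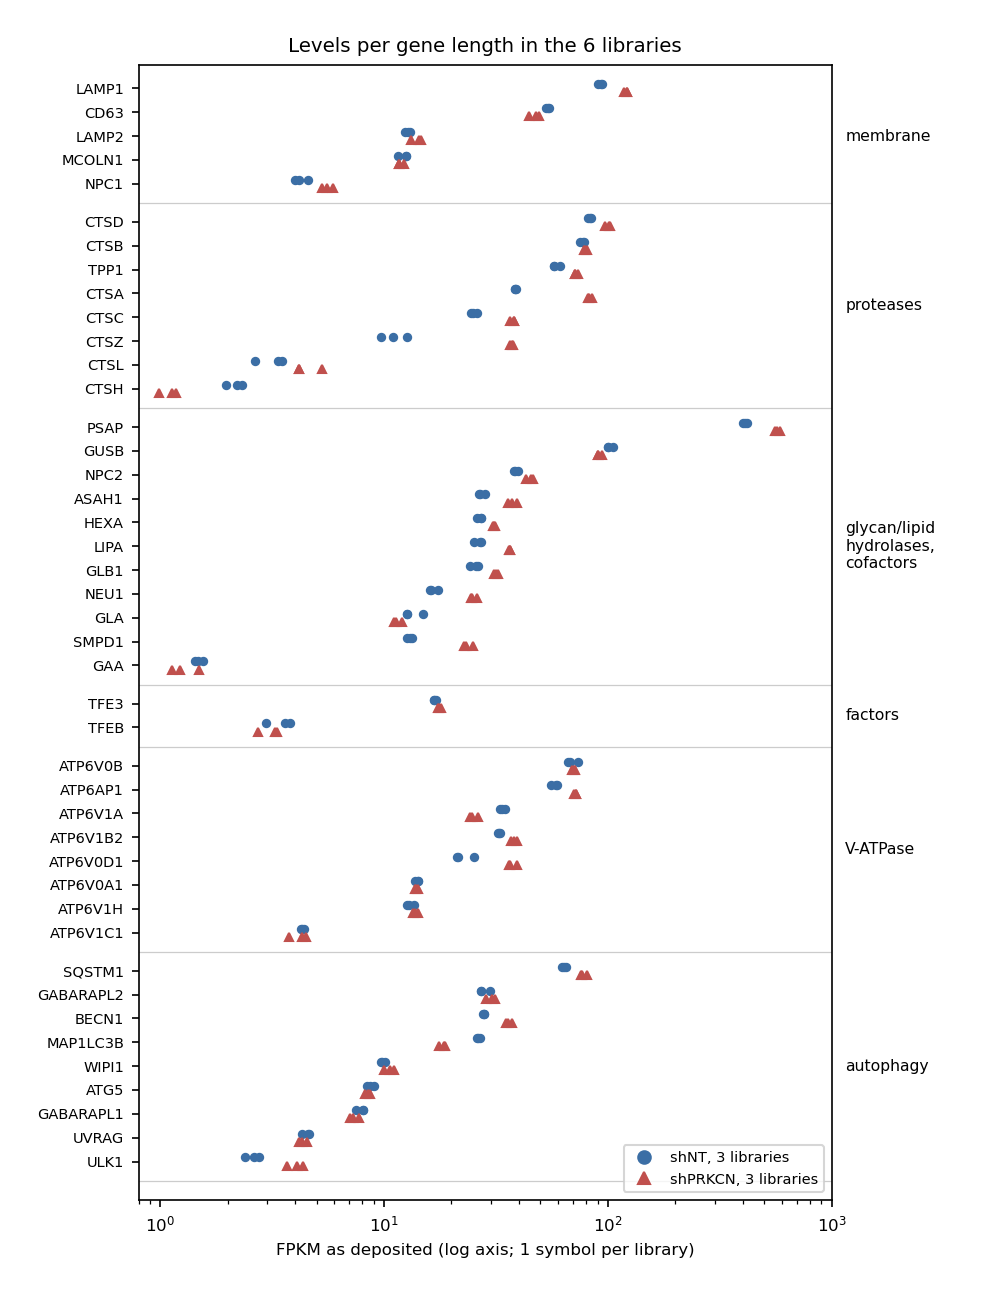
FPKM as deposited (log axis) of the 43 members in the 6 libraries, by role and ordered within a role by the shNT mean, with circles for shNT and triangles for shPRKCN. PSAP lies far above the rest, at 400 to 590 FPKM, and the groups are well apart for CTSZ, CTSA, SMPD1 and CTSH, whereas they mix for CTSB, MCOLN1, ATP6V0A1 and ATG5.

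Of the 5 membrane proteins 3 rose (60%), 1 fell (20%), and none reached the fold limit. Among genes at or above the depth floor 31.6% rose and 31.8% fell, and whether so few genes differ from that was not tested. LAMP1, a heavily glycosylated protein that lines the inner face of the lysosomal membrane, was at 249, 254 and 258 CPM in the shNT libraries and at 319, 333 and 326 CPM in the shPRKCN libraries. The groups did not overlap, and the log2 fold change was 0.36 (SE 0.034, adjusted p = 1.2e-14). NPC1, which exports cholesterol from the lysosome, was at 34.5, 30.1 and 31.4 CPM in shNT and at 39.2, 44.5 and 41.2 CPM in shPRKCN, again without overlap (log2 fold change 0.38, SE 0.058, adjusted p = 5.6e-08). LAMP2, the partner of LAMP1, rose by less (0.12, adjusted p = 0.0084), and its adjusted p was 0.051 without shNT library 2 and 0.052 without shPRKCN library 3 (0.00093 to 0.068 over all alternatives). CD63, a tetraspanin of late endosomes, moved the other way, from 110 ± 2.05 to 95.2 ± 5.99 CPM (−0.21, SE 0.042, adjusted p = 2.1e-05). For MCOLN1, the calcium channel of the lysosomal membrane, the groups overlapped (log2 fold change −0.06, 95% confidence interval −0.18 to 0.07, adjusted p = 0.466).

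The proteases held both the largest rise and the largest fall among the members. Of these 8 genes 6 rose (75%), 1 fell (12.5%) and 1 did not pass the test, and their median log2 fold change was 0.39. Among genes at or above the depth floor 31.6% rose and 31.8% fell. CTSZ, a cysteine carboxypeptidase (gene on chr20:58995185-59007254, GRCh38.p14), was at 14.7, 19.1 and 16.6 CPM in the shNT libraries. In the shPRKCN libraries it was at 55.6, 57.1 and 53.9 CPM, so that every shPRKCN library exceeded every shNT library by a wide margin. The change was 3.31-fold (log2 fold change 1.73, SE 0.063, adjusted p = 4.2e-35). CTSA (chr20:45891335-45898820) encodes a serine carboxypeptidase that also protects GLB1 and NEU1 from degradation by holding them in a complex. Its level was 120, 119 and 122 CPM in shNT and 251, 264 and 250 CPM in shPRKCN, a 2.12-fold change (log2 fold change 1.08, SE 0.037, adjusted p = 9.4e-37).

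CTSH, an aminopeptidase (chr15:78921058-78945046), fell from 7.16, 7.51 and 6.36 CPM to 3.75, 3.20 and 3.58 CPM, which is 50.1% of the shNT level (log2 fold change −0.997, SE 0.140, adjusted p = 6.8e-09). This gene was among the least abundant members, and its groups were far apart relative to their spread. CTSC, the dipeptidyl peptidase that activates granule serine proteases in leukocytes, was at 199, 187 and 192 CPM in shNT and at 275, 289 and 285 CPM in shPRKCN. Its rise (0.55, SE 0.036, adjusted p = 4e-22) stayed just under the fold limit. Smaller rises were found for CTSL, an endopeptidase of the papain family (0.50, SE 0.128, adjusted p = 0.00067), TPP1, a tripeptidyl peptidase (0.28, adjusted p = 8.7e-10), and CTSD, the main aspartic protease of lysosomes (0.25, adjusted p = 1.5e-08). CTSB, another abundant cysteine protease of lysosomes, did not pass the test, at 388, 371 and 386 CPM against 385, 399 and 378 CPM (0.02, 95% confidence interval −0.04 to 0.09, adjusted p = 0.607). In the gene models 36.5% of the 50-base stretches of CTSD and 9.39% of those of TPP1 also occur in an overlapping model on the same strand, so the counts of both genes are less certain.

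Among the 11 glycan and lipid hydrolases and cofactors, 8 rose (72.7%) and 2 fell (18.2%), with a median of 0.30. The shares among genes at or above the depth floor were 31.6% and 31.8%. SMPD1 (chr11:6390474-6394996), acid sphingomyelinase, which releases ceramide from sphingomyelin, was at 32.6, 31.5 and 33.3 CPM in shNT and at 56.7, 61.8 and 55.6 CPM in shPRKCN. The groups were well separated and the change was 1.79-fold (log2 fold change 0.84, SE 0.053, adjusted p = 2.4e-22). ASAH1, acid ceramidase, which acts on the ceramide that SMPD1 releases, rose by a log2 fold change of 0.44 (SE 0.041, adjusted p = 7.9e-15). LIPA, the acid lipase that frees cholesterol and fatty acids, rose as much (0.44, SE 0.041, adjusted p = 8.5e-15), and NPC2, the soluble carrier that hands cholesterol to NPC1, rose by less (0.19, SE 0.048, adjusted p = 0.0005). PSAP was at 1146, 1109 and 1163 CPM in shNT and at 1525, 1637 and 1546 CPM in shPRKCN (0.46, SE 0.033, adjusted p = 3.5e-20), or 410 ± 9.42 against 573 ± 15.9 FPKM.

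Glycan hydrolases moved in both directions. NEU1 (chr6:31857659-31862821), the lysosomal sialidase, was at 54.1, 54.6 and 58.7 CPM in shNT and at 86.5, 83.2 and 81.1 CPM in shPRKCN, a change that just reached the fold limit (log2 fold change 0.583, SE 0.046, adjusted p = 8.8e-18). Its groups did not overlap, but the value was 0.56 without shNT library 1 or shPRKCN library 1 and to 0.57 without shNT library 2, below the limit in each case. GLB1, β-galactosidase, rose by 0.30 (SE 0.043, adjusted p = 9.9e-09), and HEXA, the α subunit of β-hexosaminidase, by 0.19 (SE 0.038, adjusted p = 1.6e-05). GUSB, β-glucuronidase, fell by 0.17 on the log2 scale (SE 0.036, adjusted p = 3.2e-05). GLA, α-galactosidase A, fell by 0.25 (SE 0.082, adjusted p = 0.0078). It did not pass the adjusted p limit without shNT library 3 (adjusted p = 0.13, the highest of a range from 0.0054 over the alternatives). GAA, the acid α-glucosidase that degrades glycogen, was at 5.72, 5.96 and 5.50 CPM in shNT and at 4.66, 5.73 and 4.27 CPM in shPRKCN, with 1 shPRKCN library inside the shNT range (−0.23, SE 0.139, adjusted p = 0.16), and passed without that library (−0.36, adjusted p = 0.046, in a range up to 0.49 over the alternatives).

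The partners of the sialidase complex did not move in proportion. The FPKM ratio of CTSA to NEU1 was 2.41, 2.37 and 2.25 in shNT cells, compared with 3.15, 3.44 and 3.34 after knockdown. For CTSA to GLB1 the ratio was 1.47, 1.59 and 1.52 against 2.66, 2.69 and 2.54. Neither ratio overlapped between groups, and the exact two-sided permutation test gave p = 0.1 for each of them, the smallest value that 3 libraries against 3 allow. Both ratios restate the changes of the single genes given above and are no separate test of them.

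**Figure D4:**
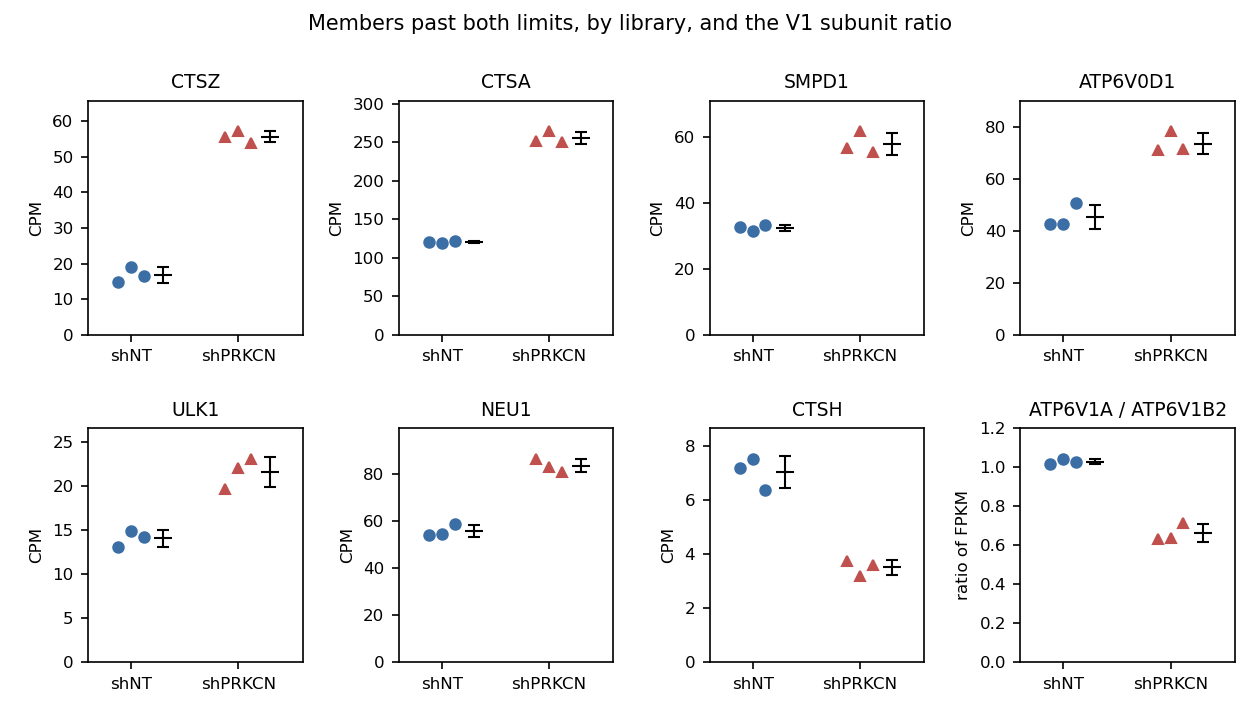
CPM of the 7 called members in each library (vertical axes from 0) and, in the last panel, the FPKM ratio of ATP6V1A to ATP6V1B2, with circles for shNT, triangles for shPRKCN and bars for the mean ± SD of 3 libraries. The groups do not overlap in any panel, CTSZ shows the widest gap relative to its level, at 14.7 to 19.1 against 53.9 to 57.1 CPM, and CTSH and the subunit ratio are lower in shPRKCN.

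The promoters of the members were searched for the letters bound by the TFEB and TFE3 family. Binding was not measured, and the letters alone do not show which protein, if any, binds them. RefSeq promoters (GRCh38.p14, from 250 bases before to 50 bases after an annotated start) were given for 33 of the 43 members. These 33 had 48 promoters, so some genes had several. CACGTG, which reads the same on both strands, occurred in 9 of the 33 (27.3%), counting any promoter of a gene. Counted that way, 12.4% of the 11035 tested genes with a promoter held it. Counted per promoter, which is a different measure, the share was 7.26% of all 35116. The longer TCACGTG, searched on both strands and containing CACGTG, occurred in 8 members (24.2%, against 6.97% of the tested genes and, per promoter, 3.71%). The stretches below are shown because they carry the same letters in genes that were called higher (CTSA, NEU1, ATP6V0D1), that rose under the fold limit (LAMP1) and that did not pass the test (GAA, MCOLN1, ATP6V0B). Each reads 5′ to 3′ in the sense of its gene and ends before the start, with the matched letters in capitals.
CTSA: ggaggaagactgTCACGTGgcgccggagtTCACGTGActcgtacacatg
NEU1: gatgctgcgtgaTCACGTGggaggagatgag
ATP6V0D1: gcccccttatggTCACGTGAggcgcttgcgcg
LAMP1: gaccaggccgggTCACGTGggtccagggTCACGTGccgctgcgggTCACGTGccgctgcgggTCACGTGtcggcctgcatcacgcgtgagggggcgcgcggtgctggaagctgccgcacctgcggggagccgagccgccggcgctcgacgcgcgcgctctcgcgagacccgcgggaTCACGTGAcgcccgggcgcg
GAA: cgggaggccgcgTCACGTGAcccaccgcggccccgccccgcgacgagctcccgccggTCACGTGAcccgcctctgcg
MCOLN1: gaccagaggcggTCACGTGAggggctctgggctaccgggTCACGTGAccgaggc
ATP6V0B: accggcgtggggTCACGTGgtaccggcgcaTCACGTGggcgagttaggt
They lie at chr20:45891280-45891328 (CTSA), chr13:113297034-113297229 (LAMP1), chr17:80101492-80101568 (GAA), chr19:7522570-7522623 (MCOLN1) and chr1:43974890-43974938 (ATP6V0B) on the plus strand, and at chr6:31862930-31862960 (NEU1) and chr16:67481198-67481229 (ATP6V0D1) on the minus strand. In these stretches LAMP1 held 5 matches, CTSA, GAA, MCOLN1 and ATP6V0B held 2 each, and NEU1 and ATP6V0D1 held 1 each. The LAMP1 window held a further TCACGTGA that spans the start of the gene, at chr13:113297237-113297244.

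Members with and without these letters overlapped in their response. The median log2 fold change was 0.31 over the 8 members with TCACGTG and 0.19 over the 25 without it, against 0.03 and −0.0020 for all tested genes with and without it. For the shorter CACGTG the medians were nearly equal, at 0.25 over the 9 members with it and 0.23 over the 24 without it. The 8 ranged from 1.08 for CTSA to −0.23 for GAA, which carries the palindrome TCACGTGA at both of its matches. CD63, which fell, held CACGTG alone, at chr12:55729184-55729189. That site lies inside the CD63 gene (chr12:55723535-55730041, minus strand), before an internal start and not before the outermost start of the gene. CTSD, which rose by 0.25, held the eighth TCACGTG, read on the other strand. CTSZ, the member with the largest rise, had neither run of letters in its promoter window, which says only that these letters are not in those bases.

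The transcripts of the transcription factors themselves did not pass the test. TFEB was at 13.99, 10.9 and 13.2 CPM in shNT and at 9.85, 11.995 and 11.9 CPM in shPRKCN, with overlapping groups (log2 fold change −0.17, 95% confidence interval −0.37 to 0.02, adjusted p = 0.137). Without shNT library 2, its lowest control, TFEB passed (−0.27, adjusted p = 0.029, in a range up to 0.54 over the alternatives). TFE3 was at 56.1, 57.4 and 56.5 CPM against 57.8, 58.3 and 59.0 CPM, separate by library but with a difference of only 0.04 (95% confidence interval −0.05 to 0.14, adjusted p = 0.467). TFE3 was the more abundant per length, at 16.9 ± 0.220 FPKM against 3.46 ± 0.440 for TFEB in shNT cells. The location and phosphorylation of these proteins were not measured by RNA-seq.

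Of the 8 V-ATPase genes 3 rose (37.5%), 1 fell (12.5%) and 4 did not pass the test, with a median of 0.04. Among genes at or above the depth floor 31.6% rose and 31.8% fell. The share that rose was near theirs and the share that fell was under theirs. Whether so few genes differ from those shares was not tested. The pump is built from a membrane sector, V0, which conducts protons, and a cytosolic sector, V1, which hydrolyzes ATP. ATP6V0D1 (chr16:67438019-67481157), the d subunit that joins the V0 ring to the central stalk, was at 42.7, 42.8 and 50.6 CPM in shNT and at 71.0, 78.4 and 71.7 CPM in shPRKCN. All shPRKCN libraries exceeded all shNT libraries, and the change was 1.62-fold (log2 fold change 0.70, SE 0.053, adjusted p = 6.8e-19). The other V0 members differed little, with ATP6V0A1 at a log2 fold change of −0.03 (adjusted p = 0.65) and ATP6V0B at 0.0041 (adjusted p = 0.94). ATP6AP1, an accessory subunit needed for assembly of V0, rose by 0.28 (SE 0.038, adjusted p = 1.9e-09).

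Within V1, the catalytic subunit and its partner in the ATP-hydrolyzing ring moved in opposite directions. ATP6V1A was at 152, 159 and 155 CPM in shNT and at 112, 112 and 119 CPM in shPRKCN (log2 fold change −0.45, SE 0.039, adjusted p = 4.4e-16). ATP6V1B2 was at 93.4, 95.1 and 94.1 CPM against 110, 109 and 104 CPM (0.19, SE 0.041, adjusted p = 4.5e-05). The groups were separate for both genes, and their ratio restates these changes and is no separate test. The FPKM ratio of ATP6V1A to ATP6V1B2 was 1.02, 1.04 and 1.03 in shNT cells, compared with 0.632, 0.639 and 0.716 after knockdown (exact two-sided permutation test, p = 0.1, the smallest value possible here). The ring holds A and B subunits in equal number, but this ratio is of transcripts and depends on the gene lengths used. The subunit proteins were not measured. The C and H subunits ATP6V1C1 (−0.06, adjusted p = 0.464) and ATP6V1H (0.07, adjusted p = 0.329) did not pass the test, and the sign of ATP6V1C1 turned without shPRKCN library 2.

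Of the 9 autophagy genes 3 rose (33.3%), 1 fell (11.1%) and 5 did not pass the test. The share that rose was near the 31.6% of genes at or above the depth floor, and the share that fell was under their 31.8%. Whether so few genes differ from those shares was not tested, so the values below describe single genes. ULK1 (chr12:131894622-131923150), the kinase that starts autophagosome formation, was at 13.1, 14.9 and 14.3 CPM in shNT and at 19.7, 22.1 and 23.1 CPM in shPRKCN. The groups did not overlap, and the change was 1.53-fold (log2 fold change 0.62, SE 0.079, adjusted p = 4.3e-10), with values of 0.57 both without shNT library 1 and without shPRKCN library 3, under the fold limit. BECN1, a scaffold of the lipid kinase complex that acts after ULK1, rose from 64.1, 63.6 and 63.0 CPM to 83.1, 79.6 and 79.9 CPM (0.35, SE 0.045, adjusted p = 5.4e-10). SQSTM1, the receptor p62 that binds ubiquitinated cargo, was at 209, 205 and 214 CPM in shNT and at 244, 265 and 247 CPM in shPRKCN (0.27, SE 0.036, adjusted p = 2.4e-09). For SQSTM1, 20.7% of the exon bases overlap MRNIP on the opposite strand, which had 323 to 406 counts per library, and the strand setting of the counting is not given in the sources used here.

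MAP1LC3B, the ubiquitin-like protein LC3B that is attached to autophagosome membranes, fell. It was at 56.9, 58.1 and 56.5 CPM in the shNT libraries and at 39.3, 40.3 and 37.3 CPM in the shPRKCN libraries (log2 fold change −0.55, SE 0.051, adjusted p = 4.5e-15), without overlap and with a change just smaller than the fold limit. Of the 50-base stretches of MAP1LC3B, 4.82% also occur in a similar gene, MAP1LC3B2, which had 24 to 47 counts per library. The related GABARAPL1 (−0.12, adjusted p = 0.198) and GABARAPL2 (0.08, adjusted p = 0.286) did not pass the test. The FPKM ratio of MAP1LC3B to GABARAPL2 was 0.965, 0.996 and 0.876 in shNT and 0.650, 0.617 and 0.562 in shPRKCN (exact two-sided permutation test, p = 0.1). This ratio restates the fall of MAP1LC3B and is no separate test. WIPI1, which binds the lipid made by the BECN1 complex (0.08, adjusted p = 0.181), ATG5, part of the enzyme that lipidates LC3 (−0.06, adjusted p = 0.388), and UVRAG, a BECN1 partner (−0.08, adjusted p = 0.242), had overlapping groups. WIPI1 shares 24.3% of its exon bases with ARSG on the opposite strand, a sulfatase gene that rose by 0.48 (adjusted p = 6.1e-05).

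A wider list of 176 lysosome and autophagy genes outside the 43 was described in the same way. It was chosen with earlier results of these data known and was read in the same libraries, so it is not an independent check of the members. Of these, 172 were listed and 164 were tested, 74 were higher (45.1%) and 34 lower (20.7%) at the adjusted p limit, against 26.5% and 27.8% of all genes tested, and their median log2 fold change was 0.10. Both limits were passed by 11 in the higher and 9 in the lower direction (6.71% and 5.49%, against 6.15% and 10.6% of all genes tested), so the share called higher was near that of all genes. CTSE, CTSG, ATP6V1B1 and MAP1LC3C were not listed, and MCOLN2, HYAL1, IDUA, NAPSA, ATP6V0A4, ATP6V0D2, MAP1LC3A and BNIP3 were listed but had too few counts to be tested. Membrane proteins (17 higher and 4 lower of 29) and hydrolases (22 and 7 of 40) had more genes higher than lower, as among the members. Genes of mannose 6-phosphate sorting, which sends new hydrolases to the lysosome, were higher in 6 and lower in 2 of 14, and none was called. Further V-ATPase genes were higher in 7 and lower in 3 of 19, also with none called.

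**Figure D5:**
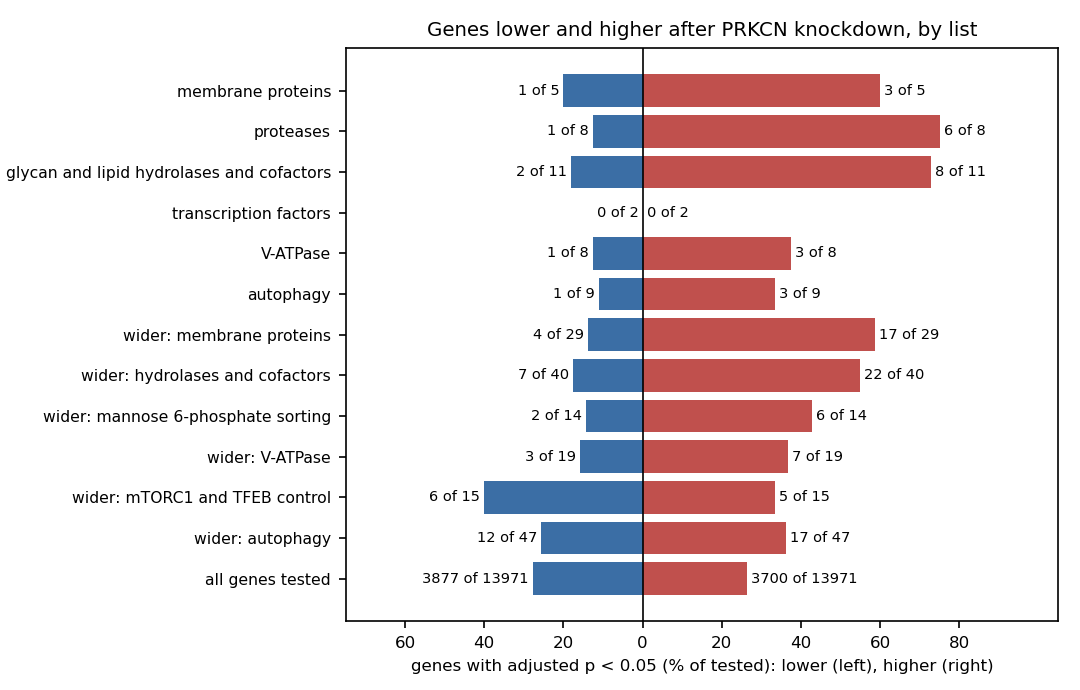
Share of the tested genes of each list (%) that were lower (left) or higher (right) in shPRKCN at an adjusted p under 0.05, with the counts printed beside the bars. The bars lean to the right for every list except the 2 transcription factors, where neither passed, and the mTORC1 and TFEB control genes (6 lower and 5 higher of 15). The share of higher genes is largest for membrane proteins, proteases and hydrolases (55% to 75%). All genes tested split nearly evenly (3877 lower, 3700 higher).

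Called genes of the wider list are given by group. Among membrane proteins, the cation channel TPCN1 rose from 66.4 ± 0.609 to 135 ± 5.16 CPM (log2 fold change 1.02, SE 0.042, adjusted p = 3.1e-32), HGSNAT, which acetylates heparan sulfate for its breakdown, rose by 0.73 (SE 0.053), and MCOLN3, a relative of MCOLN1 at 1.33 ± 0.322 CPM in shNT, rose by 1.00 (SE 0.237). The remaining called higher gene was SLC15A3 (1.08, SE 0.445), at 8 to 25 counts per library and below the count minimum for naming genes. SLC15A4, a histidine and peptide transporter (−0.68, SE 0.093), and CD68, a glycoprotein of late endosomes (−0.59, SE 0.090), fell. Among hydrolases, the cysteine protease CTSF (0.96, SE 0.132), the sulfatase ARSB (0.71, SE 0.075), the acid phosphatase ACP5 (0.70, SE 0.198) and the hyaluronidase HYAL2 (0.59, SE 0.107) rose. GGH, which trims folate polyglutamates, fell from 45.6 ± 2.03 to 23.4 ± 1.46 CPM (−0.96, SE 0.059, adjusted p = 3.6e-23), and CTSV, a relative of CTSL, fell by 0.68 (SE 0.225). SLC15A3 and HYAL2 were named after their values were seen, and SLC15A3 kept an adjusted p under 0.05 only when shNT library 3 was the library left out (up to 0.13 otherwise). With 1 library left out, CD68 ranged from −0.67 to −0.52, under the fold limit without shNT library 3, shPRKCN library 1 or shPRKCN library 3, and HYAL2 ranged from 0.49 to 0.69, under it without shNT library 1.

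In the group that controls mTORC1 and TFEB at the lysosome, 5 of 15 genes were higher (33.3%) and 6 lower (40%). Of all genes tested, 26.5% were higher and 27.8% lower. The 3 called genes were all lower (20%, against 10.6% of all genes tested), and whether so short a list differs from that share was not tested. LAMTOR5, a subunit of the Ragulator scaffold that recruits mTORC1, fell from 39.998 ± 1.57 to 24.4 ± 1.45 CPM (log2 fold change −0.72, SE 0.060, adjusted p = 6.3e-17). FNIP2, a partner of folliculin, fell by 0.64 (SE 0.053). TFEC, a relative of TFEB outside the naming rule for its low counts and named after its values were seen, had 51, 91 and 46 counts in shNT and 16, 4 and 20 in shPRKCN (−2.26, SE 0.378, adjusted p = 4.9e-07). Among 47 further autophagy genes, 17 were higher (36.2%) and 12 lower (25.5%), not far from the shares of all genes tested. Called were 6.38% higher and 4.26% lower, against 6.15% and 10.6% of all genes tested. The lipid scramblase ATG9A (0.75, SE 0.048), the LC3-processing protease ATG4D (0.64, SE 0.084) and the lipid transfer protein ATG2A (0.59, SE 0.053) rose. BNIP3L, a receptor for the removal of mitochondria, fell from 162 ± 2.09 to 74.2 ± 2.55 CPM (−1.12, SE 0.040, adjusted p = 1.5e-35), and WDR45B, a relative of WIPI1, fell by 0.74 (SE 0.046). Without 1 library ATG2A ranged from 0.55 to 0.63, under the fold limit without shNT library 1 or shPRKCN library 1, and ATG4D from 0.57 to 0.71, under it without shPRKCN library 3.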

How the data were processed

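RNA-seq was measured in 6 libraries of MM.1S cells (3 shNT, 3 shPRKCN), grouped by the treatment and genotype labels. The authors deposited 2 tables of the same genes, 1 of raw counts and 1 of FPKM values, with a column per library. The submitters' processing notes list FastQC, HISAT2, StringTie and GRCh38.p14, with no role or order. The counting program, annotation and strandedness are not given in the sources used here, so genes that share or overlap sequence are less certain. This was checked with 50-base stretches and exons of GENCODE models on GRCh38. The members and gene lists were chosen with earlier results of these data known.

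TMM normalization and the quasi-likelihood test of edgeR 4.0.16 in R 4.3.3 were applied to the counts of 13971 genes that passed filterByExpr, with Benjamini-Hochberg adjustment over all of them. CPM values use TMM-normalized library sizes. Limits were an adjusted p under 0.05 and, for called genes, a log2 fold change beyond 0.58. FPKM values served for levels between genes and for ratios, with the exact permutation test over libraries. A chi-square over genes was 3.39 to 4.82 per degree of freedom for libraries of 1 group and 64.5 to 71.0 across groups, so no library was a copy of another. The labels do not say whether libraries came from separate cultures, so p-values measure only the spread between these samples, which may be technical. All 43 members and PRKD3 are named, and of each wider list up to 3 called genes per direction with a mean of at least 50 counts. Genes were matched by symbol to RefSeq on GRCh38.p14 for coordinates (43 of 43 members) and promoters (33 of 43). Alternatives were RLE and upper-quartile scaling, no filter, at least 10 counts in every library, DESeq2 1.42.0, the replicate number as a block, limma 3.58.1 with log2(FPKM + 1), with log2(FPKM + 0.1) and with the former at an FPKM of at least 1 in 3 libraries, glmTreat against 0.58, and each library left out. Python 3.11.15 was used for sequences.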

Additional observations from a re-analysis of the deposited data

How the results depend on the processing

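The count of members at the adjusted p limit was 22 or 23 higher and 5 to 7 lower in all alternatives that test it, their median log2 fold change was 0.16 to 0.21, and CTSZ, CTSA, SMPD1, ATP6V0D1 and CTSH stayed called in every one. NEU1 and ULK1 were lost on log2(FPKM + 1) (0.575 and 0.486, with or without the FPKM minimum), under glmTreat and in the fits without a library given above. That scale understates changes of low genes, and over all genes it called 315 higher and 648 lower (310 and 635 with the FPKM minimum), while glmTreat called 339 and 821. Of 645 member values under alternatives, 632 kept direction and side of the adjusted p limit. A further 7 no longer passed that limit (LAMP2 and GLA), and 2 newly passed it (TFEB and GAA). The sign turned for ATP6V0B when a library was left out (−0.023 to 0.048) and for ATP6V1C1 (−0.10 to 0.0033), both of which missed the test throughout. Same-numbered libraries did not deviate together (correlations −0.063, −0.030 and −0.028), so no pairing by number was visible. These values cannot show whether such libraries were prepared together. With the replicate number as a block, 854 genes were called higher and 1463 lower, against 859 and 1475 without it, the same 7 members were called, the median was 0.19 and 23 members were higher and 6 lower. The design has 3 libraries per group of 1 cell line, 1 time point and 1 comparison with a scramble hairpin, so effects of the hairpin other than on PRKCN cannot be told apart from the knockdown, and exact tests of ratios cannot go below 0.1. The member with the fewest counts had a mean of 193.7 per library, and the standard errors of members' log2 fold changes ran from 0.033 to 0.140.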
